A study of Homo sapiens with 17 samples.

Results

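The replication-dependent histone genes supply the histone proteins that package newly copied DNA. They were taken as the RefSeq protein-coding genes with the symbols H1-1 to H1-6, or H2AC, H2BC, H3C or H4C followed by a number. By that rule 69 of the 19974 protein-coding genes on chromosomes 1 to 22 and X were members. They comprised 6 genes of the linker histone H1, 17 of H2A, 18 of H2B, 13 of H3 and 15 of H4. On chromosome 6 there were 55 members, on chromosome 1 there were 13, and H4C16 lay alone on chromosome 12.

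The data were peak lists from HCC1954 cells, an established HER2-positive breast cancer line, in which chromatin immunoprecipitation was sequenced for the histone variant H2A.Z (H2AZ in the labels) and for H3K27ac, H3K9ac and H3K36me3. Both arms, named NC1235 and Si1235, were transfected with antisense oligonucleotides and fixed 72 h later, and LINC01235, a long non-coding RNA, stands in the title of the series. The sources used here do not spell out NC and Si. H2AZ, H3K27ac and H3K36me3 had 2 libraries per arm, H3K9ac had 1 per arm, and 1 NC1235 library came from ChIRP, a method that recovers DNA lying near a probed RNA. Whether replicates came from separate cultures is not in the labels, and p-values from limma then reflect library-to-library spread that can be technical. No RNA level was measured in these files, and no peak list of the input samples was used.

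Histone genes of this class are short, mostly lack introns, and are transcribed during S phase into mRNAs that end in a stem-loop in place of a poly(A) tail. They lie in clusters where many H2A and H2B genes stand back to back and share a promoter, and their transcription takes place in nuclear histone locus bodies organised by NPAT. H3K27ac and H3K9ac mark active promoters, H2A.Z sits in the nucleosomes beside the start site, and H3K36me3 is laid down over gene bodies behind elongating polymerase.

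Promoter sequences of 10 members are shown because they show the elements typical of the histone families. They were also chosen because genes that share some of these elements differed in acetylation. Each run is the 150 bases before the annotated start, 5′ to 3′ on the gene's strand, taken from RefSeq on GRCh38.p14. Capitals mark matches, on either strand, to TATAAA of the TATA box, the CCAAT box, the octamer ATTTGCAT of H2A and H2B promoters, the H1 box AAACACA and the H4 element GGTCCG. H1-4, H2AC8, H2BC8, H4C5 and H3C2 held acetyl peaks in every library. H1-1, H2BC6, H4C6, H3C14 and H3C15 held none in any library, and H3C14 and H3C15 are near-identical copies.
H1-4, chr6:26156179-26156328, plus strand: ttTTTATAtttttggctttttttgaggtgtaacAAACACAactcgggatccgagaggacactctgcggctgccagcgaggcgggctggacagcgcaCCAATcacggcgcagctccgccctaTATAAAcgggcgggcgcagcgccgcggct
H1-1, chr6:26017788-26017937, minus strand: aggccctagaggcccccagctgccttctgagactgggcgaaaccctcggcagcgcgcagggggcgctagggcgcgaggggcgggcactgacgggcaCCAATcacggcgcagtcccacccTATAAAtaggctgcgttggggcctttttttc
H2AC8, chr6:26216771-26216920, plus strand: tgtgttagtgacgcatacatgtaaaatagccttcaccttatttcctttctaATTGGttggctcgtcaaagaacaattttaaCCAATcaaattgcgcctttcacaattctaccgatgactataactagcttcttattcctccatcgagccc
H2BC8, chr6:26216689-26216838, minus strand: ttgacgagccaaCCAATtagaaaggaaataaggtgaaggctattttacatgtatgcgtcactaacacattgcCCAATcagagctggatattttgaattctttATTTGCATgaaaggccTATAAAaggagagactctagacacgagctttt
H2BC6, chr6:26183611-26183760, plus strand: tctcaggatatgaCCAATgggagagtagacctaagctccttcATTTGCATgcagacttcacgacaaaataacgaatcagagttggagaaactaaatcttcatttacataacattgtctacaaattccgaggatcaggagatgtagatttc
H4C5, chr6:26204460-26204609, plus strand: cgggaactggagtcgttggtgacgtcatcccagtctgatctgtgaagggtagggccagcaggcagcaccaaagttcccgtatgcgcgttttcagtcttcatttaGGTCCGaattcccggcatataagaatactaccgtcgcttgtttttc
H4C6, chr6:26240243-26240392, plus strand: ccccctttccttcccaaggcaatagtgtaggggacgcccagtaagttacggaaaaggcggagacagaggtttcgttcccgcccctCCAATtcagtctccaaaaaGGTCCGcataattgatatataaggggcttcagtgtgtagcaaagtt
H3C2, chr6:26032100-26032249, minus strand: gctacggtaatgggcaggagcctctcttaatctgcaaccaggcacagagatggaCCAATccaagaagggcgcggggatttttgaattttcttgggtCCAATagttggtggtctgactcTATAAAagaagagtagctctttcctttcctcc
H3C14, chr1:149841209-149841358, minus strand: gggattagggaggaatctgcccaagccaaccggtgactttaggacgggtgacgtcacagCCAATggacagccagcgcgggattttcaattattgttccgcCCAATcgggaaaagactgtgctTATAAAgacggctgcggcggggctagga
H3C15, chr1:149852458-149852607, plus strand: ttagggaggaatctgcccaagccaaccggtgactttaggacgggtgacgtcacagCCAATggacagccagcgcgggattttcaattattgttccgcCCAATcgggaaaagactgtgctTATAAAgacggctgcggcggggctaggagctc

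Some of the motifs were found mostly or only in particular families. In the 250 bases before the start, AAACACA, the H1 box, was present in 6 of 6 H1 genes and in no member of the other families, against 3.70% of the 15813 protein-coding promoters with an entry. ATTTGCAT, the octamer, was present in 14 of 18 H2B genes, 11 of 16 H2A genes and 1 of 11 H3 genes, against 1.66% of all promoters. The back-to-back H2A and H2B genes share much of this window, so their counts overlap. GGTCCG, an element of H4 promoters, was present in 12 of 13 H4 genes, against 12.2% of all promoters. It was also present in 1 of 16 H2A, 1 of 18 H2B and 1 of 11 H3 genes. CCAAT was found in all H1, H2A, H2B and H3 genes with an entry and in 3 of 13 H4 genes, against 34.4% of all promoters. TATAAA was found in 42 of the 64 members with an entry and in 9.25% of all promoters. Its share by family ran from 50% in H1 to 75% in H2A. H4C1, H4C3, H2AC12, H3C11 and H3C12 had no promoter entry. None of the 5 motifs is contained in another. A match is a description of these letters and not a bound site.

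A list held between 42759 (H2AZ, Si1235 replicate 2) and 81320 peaks (H3K36me3, Si1235 replicate 2), apart from the ChIRP list with 128273. The read depth is unknown, and background levels read from weak peaks were lower in replicate 2 than in replicate 1, at 1.35 against 2.18 reads in NC1235 H2AZ and 1.35 against 2.14 in Si1235 H2AZ. In 1500 weak peaks the read pileup came out whole, with the −log10 p met within 0.002, in 0.733% and 12.7% of the NC1235 H3K27ac peaks and in 100% of the Si1235 ones. That difference in how the H3K27ac lists were made moves with the arm, and its part in the H3K27ac differences was not tested.

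Members either held acetyl peaks in all 6 acetyl libraries (4 of H3K27ac and 2 of H3K9ac) or, in most other cases, held none. Within the gene and 1 kb either side, 49 members had a peak in all 6, 17 had none in any, and H3C3, H3C11 and H4C13 had one in some. The H3K9ac peak names carry another residue's name, and H3K27ac alone gave the same 49 and 17 members. The 17 were H1-1, H1-3 and H1-6 among H1, H2AC1 among H2A, H2BC1, H2BC3 and H2BC6 among H2B, H3C1, H3C13, H3C14 and H3C15 among H3, and H4C1, H4C4, H4C6, H4C7, H4C9 and H4C14 among H4. Of these, 3 are known as histones of male germ cells, namely H1-6, H2AC1 and H2BC1. The others were interspersed with acetylated genes: H4C6 and H4C7 stood between H3C6 and H3C7, and H2BC6 and H4C4 stood between H2BC5 and H3C4. All 17 also had no H2AZ peak in any of the 4 H2AZ libraries, whereas 45 of the 49 acetylated members had H2AZ in at least 1 library and 32 had it in all 4. A missing peak means that none passed the peak caller's threshold, not that the mark was absent.

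The family motifs were present on both sides of this divide. AAACACA was found in 3 of 3 unacetylated and 3 of 3 acetylated H1 genes, and the octamer in 3 of 3 unacetylated and 11 of 15 acetylated H2B genes. Of the 16 unacetylated members with an entry, 13 had CCAAT and 12 had TATAAA, and of the 46 acetylated members 39 and 29 had them. The printed H1-1 run has CCAAT and TATAAA as that of H1-4 does, and its AAACACA lies farther upstream than the printed bases. The H2AC8 run has CCAAT but not the octamer, which stands in the run of its partner H2BC8.

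**Figure D1:**
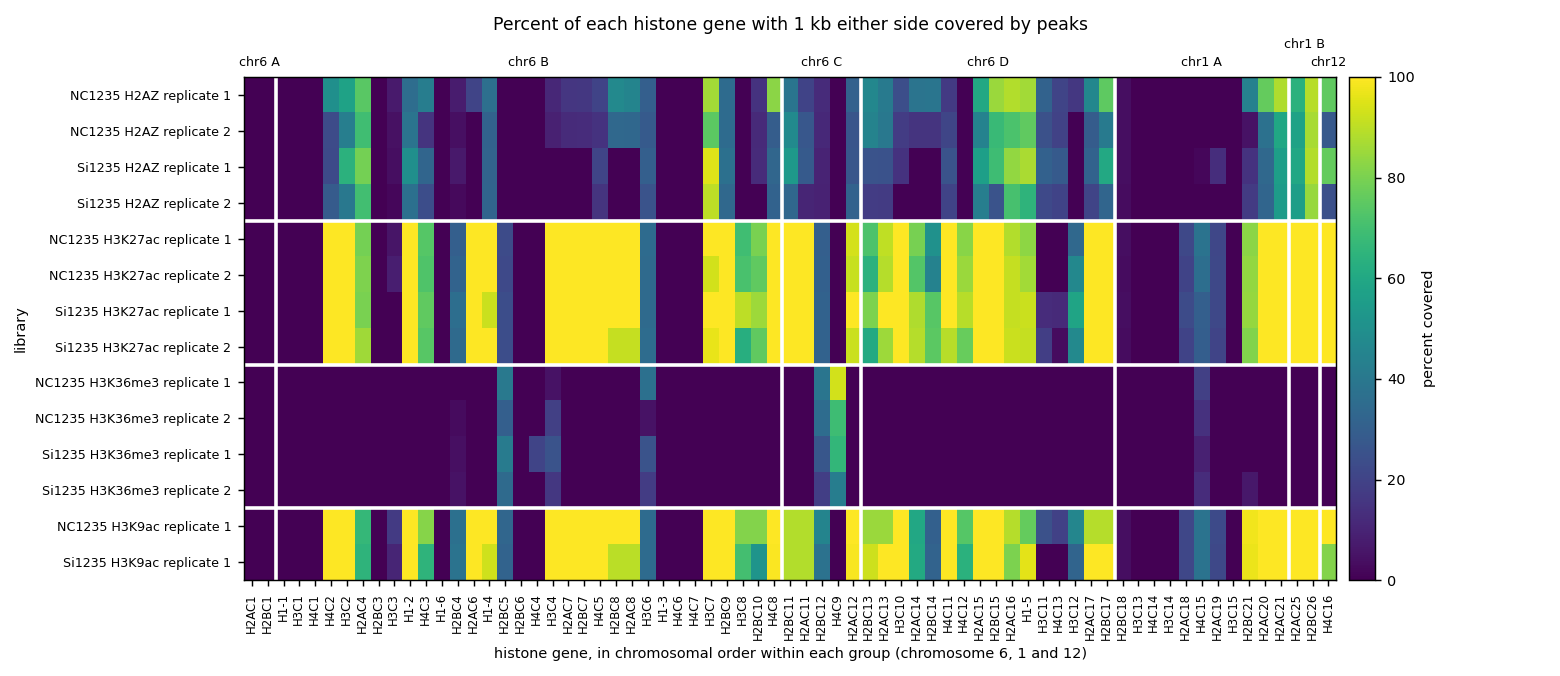
Percent of each of the 69 histone genes with 1 kb either side covered by peaks (colour, 0 to 100%), with genes as columns in chromosomal order within each group and the 14 ChIP libraries as rows. Dark columns across the H2AZ, H3K27ac and H3K9ac rows are the 17 members without an acetyl peak, and the H3K36me3 rows are dark for 60 of the 69 members.

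H3K27ac covered the members in long domains. The median member had 81.3% of its window covered over the 4 libraries, and 22 members were covered in full in all 4, against 54 of all 19974 genes. The median over all protein-coding genes was 2.91%. Window cover depends on gene length, and among the other 1188 protein-coding genes of at most 2.0 kb the median was 0% and 13 were covered in full. The separate H3K27ac peaks over members had a median width of 3757 and 3622 bp in NC1235 and 3129 and 2589 bp in Si1235, against 1098, 956, 1084 and 911 bp in the whole lists. Their median fold enrichment, the authors' own value per peak, was 38.5, 32.2, 41.2 and 32.0, against 11.0, 10.4, 11.2 and 10.5 in the lists. H3K9ac gave a similar picture, with a median cover of 81.4% in the NC1235 library and 65.0% in the Si1235 library.

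H3K36me3 was seen over few members, a share close to that of other short genes. In 60 of 69 (87.0%) no H3K36me3 peak lay in the window in any of the 4 libraries. The other coding genes of at most 2.0 kb lacked one in 85.2% of cases and all protein-coding genes in 45.0%. Of the 9 members with a peak, H2BC5, H2BC12, H3C4, H3C6, H4C15, H2BC4 and H2BC21 have annotated spans longer than 2.0 kb. H4C9 was covered for 93.1% and 69.0% in NC1235 and 66.3% and 42.4% in Si1235, although it had no acetyl or H2AZ peak. H4C9 lies inside the annotated span of H2BC12, which carried the same H3K36me3 peaks. H4C4, the ninth, had a peak in Si1235 replicate 1 alone.

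Among the linker histones, which bind DNA where it enters and leaves the nucleosome, the 3 acetylated genes were H1-2, H1-4 and H1-5. H3K27ac covered H1-2 in full in all 4 libraries. H1-5 was covered for 83.0% and 86.0% in NC1235 and 91.9% and 91.1% in Si1235. Among the H1 genes H2AZ was highest at H1-5, with 86.1% and 75.6% in NC1235 and 87.4% and 65.0% in Si1235. Its arms overlapped for H2AZ.

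The H2A genes, whose products pair with H2B in the nucleosome, had the highest median H3K27ac cover of the families. All but H2AC1 were acetylated, 8 of 17 were covered in full in all 4 libraries, and the family median was 97.8%. H2AC20, H2AC21 and H2AC25 were each covered in full by H3K27ac and by H3K9ac in every library. H2AZ cover ranged from none at H2AC18 to 88.6% and 71.6% in NC1235 and 83.6% and 71.0% in Si1235 at H2AC16.

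The H2B genes included 15 acetylated members of 18, with a family median of 74.2% for H3K27ac. Long annotated spans lowered the cover of some: H2BC18, annotated over 29682 bp, had 3.67%, 3.49%, 3.72% and 3.42% of its window covered although a strong peak lay in it. H2BC26, the H2B partner of H2AC25, had the highest mean H2AZ cover in NC1235 of all members, at 89.4% and 86.8%, with 88.4% and 84.6% in Si1235. H2BC5 was the only H2B gene with acetyl peaks in every library and no H2AZ peak in any.

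The H3 and H4 genes, whose products form the core tetramer, were acetylated less uniformly. Of 13 H3 genes 7 had acetyl peaks in all libraries and 4 in none, and of 15 H4 genes 8 and 6 did. H3C7 had H2AZ cover of 86.2% and 74.6% in NC1235 and 95.3% and 90.2% in Si1235. Its arms did not overlap. H3C8 and H4C12 were acetylated in every library and had no H2AZ peak. H3C11 and H4C13, neighbours on chromosome 6, showed the reverse, with H2AZ in all 4 libraries and acetyl peaks in some. At both genes H3K27ac peaks lay in the Si1235 libraries alone and an H3K9ac peak in the NC1235 library alone. The 2 acetyl marks thus differed between the arms in opposite directions there, with 1 H3K9ac library per arm. H4C16 on chromosome 12 was covered in full by H3K27ac in every library, and its H2AZ cover came to 75.5% and 28.1% in NC1235 and 76.2% and 24.5% in Si1235, which followed the replicate number rather than the arm.

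At acetylated histone promoters the start site seldom lay in an H2AZ peak. At the 45 distinct start sites of members acetylated in all 6 libraries, the start itself lay in an H2AZ peak in 33.3% and 11.1% of cases in NC1235 and in 26.7% and 15.6% in Si1235. At 8828 other protein-coding start sites with an H3K27ac peak within 1 kb in all 4 libraries, it did so in 89.8% and 81.4% in NC1235 and 91.3% and 82.5% in Si1235. H3K27ac covered the histone starts in 80.0%, 77.8%, 82.2% and 77.8% of cases in the same order, close to the 85.4%, 83.0%, 85.4% and 81.1% of the other starts.

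H2AZ at the histone genes lay on either side of the start. At 400 bp upstream 62.2% and 55.6% of the 45 sites were covered in NC1235 and 51.1% and 44.4% in Si1235. At 400 bp downstream the values were 62.2% and 42.2% in NC1235 and 31.1% and 26.7% in Si1235, so that both Si1235 libraries lay below both NC1235 libraries at this distance on either side. The same held at 500 bp upstream, with 60% and 53.3% in NC1235 and 48.9% and 37.8% in Si1235. At 1000 bp on either side the arms overlapped. At 1000 bp downstream the values were 31.1% and 17.8% in NC1235 against 26.7% and 15.6% in Si1235, and at 2000 bp Si1235 replicate 1 was the highest library, with 9 of 45 sites covered. Close to the start they overlapped as well, at 100 bp on either side. At 400 bp downstream the other starts gave 90.8% and 86.3% in NC1235 and 91.8% and 88.2% in Si1235. None of these shares was tested, since neighbouring members share peaks and the sites are no replicates.

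**Figure D2:**
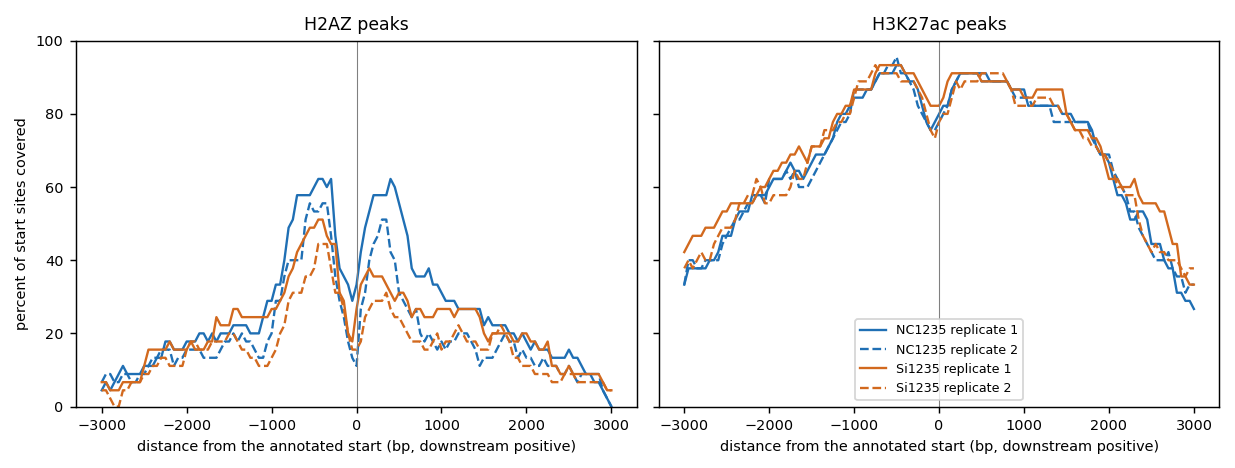
Percent of the 45 distinct start sites of acetylated histone genes lying in a peak (vertical axis) at each distance from the start in bp (horizontal axis, downstream positive), for H2AZ on the left and H3K27ac on the right, with 1 line per library. H2AZ dips at the start. At 400 bp downstream it is lower in both Si1235 libraries, at 31.1% and 26.7% against 62.2% and 42.2%, but the arms overlap at 1000 and 2000 bp, while the 4 H3K27ac lines run together.

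The shared promoters of back-to-back genes were mostly without H2AZ peaks. In 11 H2A and H2B pairs the starts were 194 to 248 bp apart. No H2AZ peak reached the stretch between the starts in 8 of 11 pairs in NC1235 replicate 1, 11 in NC1235 replicate 2, 8 in Si1235 replicate 1 and 11 in Si1235 replicate 2. H3K27ac covered the whole stretch in 8, 8, 10 and 8 pairs, and it was absent in all 4 libraries from 1 pair, H2AC1 and H2BC1. At H2AC14 and H2BC14 the stretch was covered in full by H2AZ in NC1235 replicate 1 and not at all in the other 3 libraries.

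The comparison of the arms asked whether peak cover of the histone genes differed between NC1235 and Si1235. Several H2A and H2B genes of chromosome 6 had H2AZ peaks in NC1235 that were missing in Si1235, but no member passed the test. With limma and Benjamini-Hochberg adjustment at 0.05, none of the 43 members tested was called for H2AZ, where 0% of all 7078 genes tested was called. None of 49 was called for H3K27ac, where 0.0635% of 7871 genes was called, and none of 7 for H3K36me3, where 0% of 8599 was. In bulk chromatin, fewer cells with a mark and less of it per cell cannot be told apart. Only members whose cover averaged 5% or more across a mark's 4 libraries were tested.

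H2AZ at H2BC8 covered 46.9% and 33.6% of the window in NC1235 and 0% and 0% in Si1235. Its partner H2AC8 was covered for 45.0% and 33.2% in NC1235 and 0% in both Si1235 libraries. In each NC1235 library 2 peaks made up these values. The stronger lay downstream of the H2AC8 start, at chr6:26216977-26217791 in replicate 1 and chr6:26217026-26217645 in replicate 2, just after the printed H2AC8 promoter. Its fold enrichment there was 5.31 and 7.74, and it was stronger than 26.5% and 49.5% of the peaks of those lists. The other lay on the H2BC8 side, at chr6:26215783-26216237 in replicate 1 and chr6:26216357-26216573 in replicate 2. Its fold was 4.54 and 5.53, and its positions in the replicates did not overlap. The differences of −40.3 ± 4.78 and −39.1 ± 4.26 points (limma SE) had adjusted p of 0.463 and 0.452.

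H2AC14 and H2BC14, another back-to-back pair, had H2AZ cover of 38.6% and 15.1% (H2AC14) in NC1235 and none in Si1235. For H2BC14 the values were 38.7% and 15.1% against none, with an adjusted p from limma of 0.998. H2BC13 was covered for 46.3% and 44.7% in NC1235 and 25.6% and 17.9% in Si1235, with an adjusted p of 0.684 from limma. H2AC7 had 15.8% and 12.5% in NC1235 and none in Si1235, and H2BC7 and H3C4 share its peaks. In all of these genes both Si1235 libraries lay below both NC1235 libraries.

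By presence alone, 7 of the 48 members with an H2AZ peak in any library had one in both NC1235 libraries and in neither Si1235 library, and 0 had the reverse. The 7 were H3C4, H2AC7, H2BC7, H2BC8, H2AC8, H2AC14 and H2BC14, which form 3 separate stretches of chromosome 6. Over all 15585 genes with an H2AZ peak in any library the shares were 0.456% and 0.391%, and over the other 297 genes of at most 2.0 kb they were 0.673% and 0.673%. At an unadjusted p under 0.05 from limma, 9 of 43 members were lower in Si1235 and 0 were higher, and the 9 lay in 4 stretches. Of all genes tested 1.38% were lower and 2.66% higher at that level, and of the other tested genes of at most 2.0 kb 1.51% and 6.42%. The 9 include the 7 above, so this count is not separate from the count by presence. Those 7 had no cover in either Si1235 library, passed the filter through NC1235 alone, and took no spread from Si1235.

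Without overlap between the arms, 13 of the 43 tested members were lower in Si1235 for H2AZ and H3C7 was higher. In all genes tested 9.97% were lower and 21.5% higher without overlap, and in the other tested genes of at most 2.0 kb 7.92% and 22.3%. With H3C3, which did not pass the filter, the lower members came to 14 in 7 stretches of chromosomes 1 and 6. They include the 7 members counted by presence above. Mean H2AZ cover over all 69 members came to 28.9% and 20.9% in NC1235 and 22.1% and 16.6% in Si1235. Over all protein-coding genes it came to 6.28% and 5.49% in NC1235 and 6.53% and 5.63% in Si1235. Member means overlapped between the arms, as Si1235 replicate 1 lay above NC1235 replicate 2. Means over all genes overlapped as well, as Si1235 replicate 2 lay below NC1235 replicate 1. Averaged by arm, the member mean was lower and the mean of all genes slightly higher in Si1235 than in NC1235. The median difference over the 69 members was −0.79 points, against 0.29 over all genes tested.

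**Figure D3:**
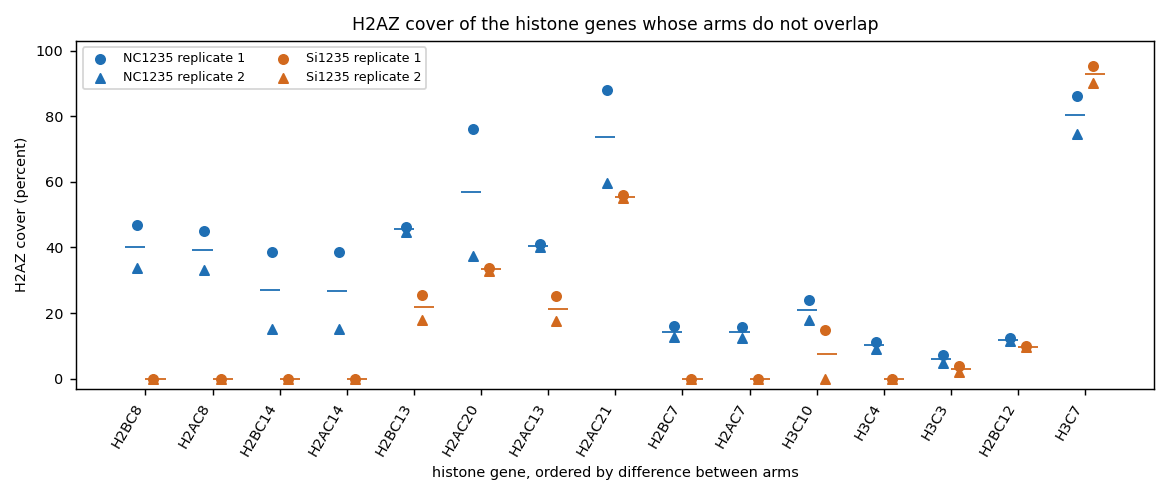
H2AZ cover in percent (vertical axis) of the 15 histone genes whose arms do not overlap (horizontal axis), with 1 point per library and a short bar at each arm's mean. In 14 genes both Si1235 points lie below both NC1235 points, 7 of them at 0%, and H3C7 is the exception at 95.3% and 90.2% against 86.2% and 74.6%.

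H3K27ac at the same genes was mostly at the ceiling of this measure. H2AC7, H2BC7 and H3C4 were covered in full by H3K27ac in all 4 libraries, where a change in the strength of the mark cannot be seen. H2BC8 was covered in full in 3 libraries and for 91.1% in Si1235 replicate 2. H2BC14, which had no H2AZ peak in Si1235, had H3K27ac cover of 50.5% and 44.5% in NC1235 and 73.9% and 74.8% in Si1235. That difference of 26.9 ± 2.41 points (limma SE) had an adjusted p of 0.0788. It lies in the flank: over the gene body alone the difference was −2.67 points. The flank includes the stretch between the starts of H2AC14 and H2BC14. H3K27ac covered that stretch for 23.2% and 0% in NC1235 and for 100% in both Si1235 libraries.

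Of the other members whose arms did not overlap for H3K27ac, H3C11 had no peak in NC1235 and 12.7% and 18.5% in Si1235, with an adjusted p from limma of 0.0962. H2AC14, whose window shares that stretch with H2BC14, had 79.4% and 73.4% in NC1235 and 88.1% and 89.0% in Si1235. Its adjusted p from limma was 0.129. H3C12 had 33.9% and 46.5% against 58.2% and 47.1%, with an adjusted p from limma of 0.375. H4C15 was lower, with 38.0% and 36.2% in NC1235 and 30.1% and 30.0% in Si1235 (limma adjusted p 0.127). In all, 9 of 49 tested members were higher and 1 was lower without overlap, where 32.7% of all tested genes were higher and 20.5% lower, and 36.1% and 10.4% of the other tested genes of at most 2.0 kb. Of the 49, 22 were covered in full in all 4 libraries and could not separate by arm. Among the remaining 27 the 9 higher members made up 33.3% and the 1 lower member 3.70%, where 33.0% and 20.7% of all tested genes not covered in full were higher and lower. At an unadjusted p under 0.05 from limma, 5 were higher and 1 was lower, against 12.3% and 8.08% of all genes. Leaving out Si1235 replicate 1 brought 4 members past the threshold (H2BC8, H2AC8, H4C11 and H3C11), and leaving out Si1235 replicate 2 brought 1 (H1-4). In those fits the single Si1235 library was assumed to vary like the NC1235 libraries, whose values were equal at each of these genes (0% at H3C11 and 100% at the others).

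For H3K36me3 the 2 members at an unadjusted p under 0.05 were H4C9 and H2BC12, which share peaks and were lower in Si1235. At that level 2.52% of all genes were lower and 5.40% higher. H4C9 differed by −26.7 ± 9.60 points (limma SE), with an adjusted p of 0.569. H2BC12 had 38.8% and 35.4% in NC1235 and 26.7% and 18.6% in Si1235, with an adjusted p from limma of 0.584. Within the gene body alone the difference at H4C9 was 28.0 points in the opposite direction, and 1 member (H4C9, H3C6 or H4C4) passed whenever 1 library was left out. No direction is therefore given for H3K36me3 at these genes.

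H3K9ac had 1 library per arm, so it has no replicate check. A difference of at least 20 points was found in H2BC10, with 81.4% in NC1235 and 51.6% in Si1235, and in H3C11, with 24.8% and 0%. No member was higher by that much. Of 9871 genes with enough cover 0.405% were lower and 0.243% higher by 20 points or more.

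The second comparison set the chromosome 6 clusters against chromosome 1. The chromosome 6 members formed 4 groups: H2AC1 and H2BC1 at 25726063 to 25727345, then 32 genes at 26017032 to 26285534, 5 at 27132316 to 27147562 and 16 at 27807479 to 27893891. On chromosome 1 there were 11 genes at 149782689 to 149887965 and the pair H2AC25 and H2BC26 at 228457364 to 228458558. In every H3K27ac library the median member of chromosome 6 was more covered, with 79.9% and 80.5% in NC1235 and 89.4% and 85.4% in Si1235. On chromosome 1 the medians were 21.8%, 21.6%, 22.8% and 20.5%. H2AZ gave 20.3%, 15.1%, 9.94% and 1.89% on chromosome 6 and 0%, 0%, 3.85% and 0% on chromosome 1, and H3K9ac 81.5% and 70.0% against 22.3% and 21.7%. The means differed less. For H2AZ they were 28.2%, 21.2%, 21.4% and 15.9% on chromosome 6 against 28.1%, 19.2%, 20.8% and 19.2% on chromosome 1, so that the order turned in Si1235 replicate 2. For H3K27ac the means lay between 59.9% and 62.7% on chromosome 6 and between 42.7% and 43.7% on chromosome 1.

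The order of the medians rested on 6 near-identical genes of chromosome 1. H4C14 and H4C15 share 300 identical bases of promoter and start, H2AC18 and H2AC19 share 299, and H3C14 and H3C15 share 296, as the last pair of printed runs shows. Without these 6 genes the medians of the remaining 7 chromosome 1 members were 100% in each H3K27ac and H3K9ac library, above chromosome 6. For H2AZ they were 63.8%, 37.4%, 33.8% and 32.8%, also above chromosome 6 in each library. Of the 7, 4 were covered in full by both acetyl marks in every library. They were the neighbours H2AC20 and H2AC21 and the pair H2AC25 and H2BC26, and genes so close share peaks. H3C13 had no peak of these marks, and H3K27ac covered H2BC18 for at most 3.72%. The sources used here do not say how reads matching both copies were placed, and its part in the low values was not tested. An H3K27ac peak of any size lay at 40 of 55 members on chromosome 6 (72.7%) and 9 of 13 on chromosome 1 (69.2%) in either NC1235 library.

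**Figure D4:**
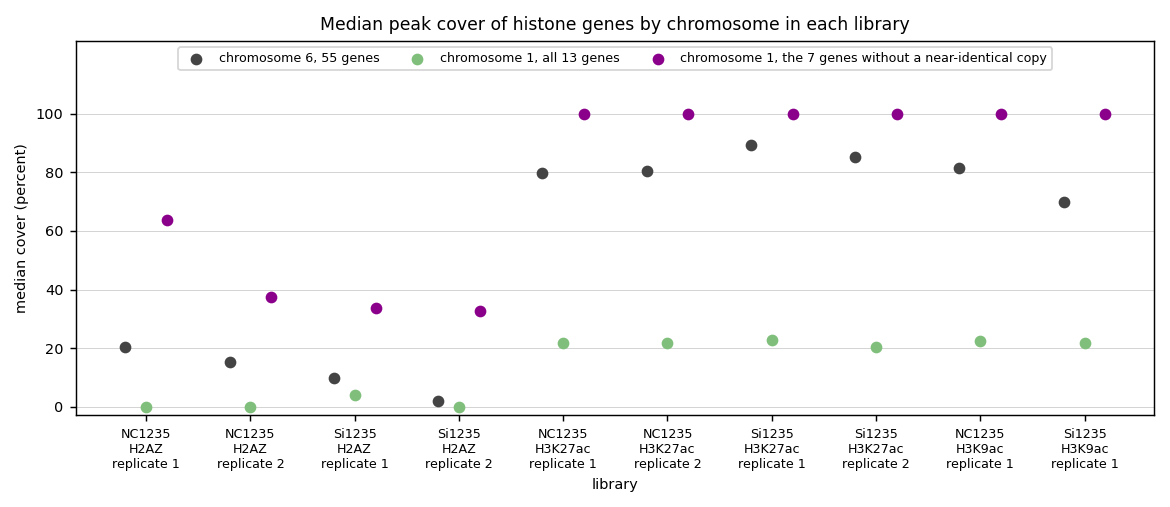
Median percent of the window covered (vertical axis) in each H2AZ, H3K27ac and H3K9ac library (horizontal axis) for the 55 members on chromosome 6, the 13 on chromosome 1, and the 7 on chromosome 1 that have no near-identical copy. The chromosome 6 median lies above that of all 13 genes and below that of the 7 genes in every library shown.

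The groups of chromosome 6 also differed among themselves. The pair H2AC1 and H2BC1 had no peak of H2AZ, H3K27ac, H3K9ac or H3K36me3 in any library. In the group of 32 genes 10 had no acetyl peak, in the group of 5 only H4C9 had none, and in the group of 16 every gene had an acetyl peak in at least some libraries. Median H2AZ cover over the 4 libraries was 6.20% in the group of 32, 21.5% in the group of 5 and 29.1% in the group of 16. The 19 other protein-coding genes inside the chromosome 6 span, among them butyrophilin and zinc finger genes, had a median H3K27ac cover of 4.57% and a median H2AZ cover of 10.6%. Their annotated spans ran from 1568 to 69100 bp, and window cover depends on gene length. By presence, 13 of the 19 had H3K27ac peaks in all 4 libraries, against 39 of the 55 chromosome 6 members (68.4% and 70.9%). For H2AZ the counts were 15 of 19 and 28 of 55 (78.95% and 50.91%).

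ChIRP peaks were found at 9 of 69 members, or 13.0%, against 68.5% of all protein-coding genes and 17.9% of the other genes of at most 2.0 kb. They lay at 5 of 13 members on chromosome 1 and 4 of 55 on chromosome 6. The 9 members held 7 separate peaks, since close neighbours share them. H2BC18 on chromosome 1 is annotated over 29682 bp, and a longer window can hold a peak more easily. The strongest, by the authors' fold enrichment, was 25.9 in H2BC18, and H4C4, which had no acetyl peak, held one of 12.3. The peak at H2AC8 and H2BC8 had a fold of 3.68 and was stronger than 0.607% of that list. The sources used here do not name the probed RNA, and there was 1 library and no control list.

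Genes that serve the histone genes had peaks in both arms. In the list for histone locus bodies and histone gene transcription, all 11 genes had H2AZ, H3K27ac and H3K36me3 peaks in all 4 libraries of each mark. Of these, 6 had enough cover to be tested for H2AZ, 6 for H3K27ac and 11 for H3K36me3, and none of those tested was called by limma (lowest adjusted p 0.129). NPAT, the organiser of the locus body, had H2AZ cover of 3.74% and 3.11% in NC1235 and 3.02% and 2.59% in Si1235 over a gene of 65424 bp, which was too low to be tested. In the list for histone pre-mRNA processing and decay, 8 of 15 genes were tested for H2AZ, 9 for H3K27ac and 15 for H3K36me3, and none of those was called by limma (lowest adjusted p 0.299). SLBP, which binds the stem-loop of histone mRNA, had H3K36me3 cover of 80.7% and 76.9% in NC1235 and 82.5% and 84.7% in Si1235. Of 8 histone chaperones 5 were tested for H2AZ, 5 for H3K27ac and 8 for H3K36me3, and none of those was called by limma (lowest adjusted p 0.220).

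The replication-independent histones have mRNAs that are mostly polyadenylated and not tied to S phase. Their median H3K36me3 cover was 28.0%, where the median over the replication-dependent members was 0%. The median over the other protein-coding genes of at most 2.0 kb was also 0%, so gene length enters this contrast. Of 12 such genes 11 had H2AZ and H3K27ac peaks in every library, and the exception was H3-5. For H2AZ 9 were tested, for H3K27ac 10 and for H3K36me3 7, and none of those was called by limma (lowest adjusted p 0.201). H2AZ1, which encodes H2A.Z itself, had H2AZ cover of 54.6% and 42.9% in NC1235 and 45.0% and 43.3% in Si1235, so its arms overlapped. The 8 markers of HER2-positive breast epithelium all had H3K27ac peaks in all 4 libraries, with a median cover of 40.8%. The 9 markers of immune, endothelial and mesenchymal cells had a median of 5.84%, and 7 of them had H3K27ac peaks in all 4 libraries. PECAM1, an endothelial adhesion gene, had H3K27ac cover of 35.7% and 34.1% in NC1235 and, in the Si1235 libraries, 37.4% and 36.7%. The part of such signal in the values of the histone genes was not tested.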

How the data were processed

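Per the submitters' processing notes, the build was hg38 and the tools were Bowtie2 2.2.9, MACS2, HTSeq 2.0.3 and DESeq2 1.22.2, with no role stated. The sources used here name no MACS2 version, setting or control. Each of the 15 lists came from 1 library. The deposited columns hold a fold enrichment (a linear ratio), −log10 p-values and −log10 q-values, a display score and a summit offset, all made by the authors' peak caller. The H3K9ac peak names carry another residue's name, and the labels were followed.

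Peaks on chromosomes 1 to 22 and X were used by position. For each library the percent of each RefSeq protein-coding gene (GRCh38.p14, unique symbols) with 1.0 kb either side that peaks covered was computed with Python 3.11.15 and pandas 2.3.3. Because gene lengths set this percent, genes of at most 2.0 kb are given beside all genes. Genes averaging 5% cover or more were fitted per mark with limma 3.58.1 (R 4.3.3), with an intensity trend, no replicate term and Benjamini-Hochberg adjustment over all genes tested, after checks on simulated data. Differences are Si1235 minus NC1235 in percentage points. No depth or read count was used, so no counting interval is given.

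The members and gene lists were chosen with earlier results of these data known. Members were named if they passed limma, had up to 5 of the highest or lowest NC1235 covers or of the largest differences without overlap, lay outside chromosome 6, or are germ-cell genes or H1-1. Other members were named after their values were seen, where a count or peak concerned them. The alternatives were other windows, stricter peaks, equal numbers of top peaks, no filter, quantile normalization, a replicate block and leaving out each library. Start-site windows, means, chromosome 1 without copies, H3K27ac counts without fully covered genes and the repeats of the presence counts were added after seeing the data. The 2 input samples were not analysed here.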

Additional observations from a re-analysis of the deposited data

How the results depend on the processing

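For H2AZ the count of genes called, 0 of all and 0 of the members, became 1 and 1 (H3C4) with 2.5 kb flanks, 2 and 1 (H2AC8) with peaks of −log10 q of at least 5, 2 and 1 (H2AC8) with equal numbers of top peaks, and 20 and 7 with quantile normalization. The 7 members were H3C4, H2AC7, H2BC7, H2BC8, H2AC8, H2BC13 and H2AC13, and all were lower in Si1235. The 7 members with H2AZ peaks in NC1235 alone numbered 5 to 9 under the other settings, and the 0 with peaks in Si1235 alone became 1 over gene bodies and 0 to 2 when 1 library was left out. For H3K27ac the 5 genes called became 36 with 2.5 kb flanks, 12 over gene bodies, 36 over start sites, 61 without the filter, 22 with quantile normalization and 0 to 11 when 1 library was left out, and the members called 0 to 4. At H2BC14 the H3K27ac difference turned to −2.67 points over the gene body. For H3K36me3 the 0 genes called became 256 with quantile normalization and 41 to 372 when 1 library was left out, with 1 member each time, and H4C9 turned to 28.0 points over the gene body.

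The replicate block gave 0 genes and 0 members for H2AZ, 0 genes and 0 members for H3K27ac, and 29 genes and 1 member (H4C9, adjusted p from limma 0.0435) for H3K36me3. The labels do not pair the replicate numbers. Over the genes tested, deviations of same-numbered libraries correlated at 0.354, 0.115 and 0.314 for H2AZ, H3K27ac and H3K36me3.

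The chromosome 6 minus chromosome 1 median for H2AZ, 10.8 points, was 1.94 over gene bodies and −30.1 without the copies. For H3K27ac, 62.1 points became 23.8 with 2.5 kb flanks, 94.7 over gene bodies, 68.6 over start sites and −16.2 without the copies. For H3K9ac, 53.7 became 22.0, 92.0 and −24.3 for wider flanks, gene bodies and no copies. The median difference between the arms, 0, became a mean of −0.261 for H3K36me3 and −1.96 for H3K9ac, whose median was −0.271 with 2.5 kb flanks. The causes of these changes were not tested, except that leaving out the copies changes which genes enter the median. Of the values under other settings for the main counts and medians, 127 stayed within the limits used and 45 moved beyond them. Of the values under other settings for single members, 147 kept their side of the threshold, 9 newly passed it and 2 changed sign.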
